A study of Bos taurus with 170 samples.

Results

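The 8 Day 3 bovine embryos of this single-cell series were compared by the number of blastomeres they held. A blastomere is 1 of the cells into which the fertilised egg divides. The cells of each embryo were counted as the columns of the deposited table before any filter, which put 3 embryos with 15 or fewer cells on one side and 5 embryos with 16 or more cells on the other. Day3-E4 held 13 cells, Day3-E6 14 and Day3-E1 15, whereas Day3-E2, Day3-E3, Day3-E7 and Day3-E8 held 16 each and Day3-E5 held 17. The smaller embryos gave 42 of the 123 Day 3 cells and 41 of the 118 that reached 2000 unique molecular identifiers (UMI, 1 for each captured mRNA molecule). The larger embryos gave 81 cells, of which 77 were kept. The whole series has 170 cells of 14 embryos, 161 of them kept. The labels call all Day 3 embryos 16-cell stage, whatever their number of cells.

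All embryos of both groups were produced in the same way and had no treatment. Oocytes from slaughterhouse ovaries were matured and fertilised with thawed bull sperm *in vitro*, and the zygotes were cultured in synthetic oviductal fluid with oestrous cow serum. The groups were formed by the number of cells alone, neither sex nor parents are given, and each embryo counts as 1 replicate because its cells are not independent. The embryos had been chosen by the study for cleavage times that favour a blastocyst.

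Cleavage divides the egg without growth, so that each round of division leaves smaller cells, and blastomeres of an embryo do not all divide at the same moment. An embryo from which no cell was lost and which has fewer than 16 cells therefore has blastomeres that have not gone through the fourth division, and the study's collection record lists no lost cell for the Day 3 embryos. In cattle the embryonic genome takes over from stored maternal transcripts mainly at the 8- to 16-cell stage, when maternal mRNAs are degraded and genes for transcription, ribosomes and the first lineages are switched on.

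Plates and groups overlapped in part. Day3-E4 and Day3-E1 shared plate 1 with Day3-E2 and Day3-E3, and Day3-E6 shared plate 3 with Day3-E5. Day3-E7 and Day3-E8 were the only Day 3 embryos on plate 2, so that those of plate 2 were all larger ones. By the study's record the Day 3 embryos of plate 1 were collected first, all at the same hour. Those of plate 3 followed at a later hour and those of plate 2 came last. Plate and time of collection therefore cannot be told apart, also where plate is used as a term below. Cell barcodes were used again in other embryos. Day3-E1 shared 14 of them with Day3-E7 and 1 with Day3-E8, and Day3-E2 shared 15 with Day3-E8. Summed over its kept cells, an embryo held 294912 to 600185 UMI on genes. Gene UMI per UMI of the ERCC spike-in, RNA added in equal amount to each well, was 68.4 to 88.9 in Day3-E1, Day3-E2 and Day3-E3 and 32.4 to 41.3 in the other 5 embryos, a split that ran across both groups. It also ran across plate 1, where Day3-E4 had 35.1. A comparison within plate 1, or with plate as a term, therefore does not remove this split. No barcode recurred among the Day 2 embryos, Day3-E1 and Day3-E2, nor among Day3-E4 to Day3-E8, but each of the latter 5 reused barcodes of the former. Day3-E3 shared 1 barcode with a Day 2 embryo and 0 with the Day 3 embryos. Day2-E3 and Day3-E5, both on plate 3, shared 9 barcodes, so a plate number does not name 1 library.

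No gene level differed between the groups past the threshold. By edgeR's quasi-likelihood test on UMI summed per embryo with Benjamini-Hochberg adjustment, 0 of 5191 tested genes (0%) had an adjusted p under 0.05, and the lowest adjusted p was 0.9999. At an unadjusted p under 0.05 there were 8 genes (0.154%), 4 higher and 4 lower in the smaller embryos, and DESeq2's Wald test also called 0 genes with 13 at that unadjusted p. Chance alone would put about 1 in 20 genes under that p, more than either test gave. The log2 difference, smaller minus larger embryos, had a median of -0.0012 over the tested genes and ranged from -2.04 to 1.58. Its standard error had a median of 0.51 and quartiles of 0.43 and 0.62, and differences of that order were not detectable with 3 and 5 embryos. On plate 1 and plate 3 taken apart, 2603 of the 5191 genes (50.1%) had the same direction of difference. Over all tested genes 2588 were higher and 2603 lower in the smaller embryos, which is the measure for the gene lists that follow.

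Few genes separated the groups completely. For 16 genes (0.308%) all 3 smaller embryos lay above the other 5, and for 7 genes (0.135%) all 3 lay below. Random labels would separate a gene in each direction in 1 of 56 splits, which is more than either share. None of these 23 genes belonged to the lists of functional groups described further on. They are given by their values, as CPM, the UMI of the gene per 1000000 UMI of the embryo, and none passed edgeR's test after adjustment (adjusted p = 0.9999 for each gene named here).

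*PGM3*, an enzyme of the pathway that makes UDP-N-acetylglucosamine for glycoproteins, had 29.9 CPM in Day3-E4, 10.96 in Day3-E6 and 11.66 in Day3-E1. The larger embryos had 37.3 in Day3-E2, 39.3 in Day3-E3, 74.4 in Day3-E7, 46.3 in Day3-E8 and 41.6 in Day3-E5. The means were 17.5 ± 10.73 (SD, n = 3) and 47.8 ± 15.24 (SD, n = 5), with a log2 difference of -1.47 (standard error 0.57). *GTF2H4*, a subunit of the transcription and repair factor TFIIH, rested on fewer molecules, with 4 UMI in Day3-E4, 2 in Day3-E6 and 10 in Day3-E1 against 6 to 21 in the larger embryos. This was 11 ± 6.19 CPM (SD, n = 3) against 37.2 ± 20.9 (SD, n = 5), a log2 difference of -1.80 (standard error 0.69). Both genes were thus low in all 3 smaller embryos, though the nearest embryos of the groups lay close together, at 29.9 and 37.3 CPM for *PGM3* and at 16.66 and 18.3 for *GTF2H4*.

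*AKAP10*, an anchor of protein kinase A, lay the other way, with 251 CPM in Day3-E4, 248 in Day3-E6 and 222 in Day3-E1 against 103 to 177 in the larger embryos. Its means were 240.1 ± 16.1148 (SD, n = 3) and 140.5 ± 33.0 (SD, n = 5), with a log2 difference of 0.77 (standard error 0.33). *GRM7*, a metabotropic glutamate receptor, had 47.8, 26.3 and 30.0 CPM in Day3-E4, Day3-E6 and Day3-E1. In the larger embryos it had 6.78 to 26.2 CPM, so that Day3-E6 with 12 UMI and Day3-E3 with 10 UMI were all but equal. *ORMDL3*, a regulator of sphingolipid synthesis, had 67.9 to 71.7 CPM in the smaller and 23.2 to 59.8 in the larger embryos. *PCGF1*, a Polycomb subunit, had 50.4 to 65.0 against 20.6 to 41.9 CPM.

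In 6 further genes all smaller embryos also lay above the larger ones. The transcription factor *RFX7* had 47.8 to 53.3 CPM against 20.6 to 38.8, and the zinc finger gene *ZNF384* had 58.3 to 76.7 against 26.2 to 49.4. *MLLT11* had 237 to 362 CPM against 142 to 234. *AP1S2*, a subunit of the clathrin adaptor AP-1, had 41.7 to 54.8 CPM against 10.17 to 39.0. The sugar phosphate transporter gene *SLC37A3* had 83.7 to 124.9 against 49.7 to 83.2, and the fatty acid elongase *ELOVL7* had 35.9 to 37.3 against 7.72 to 33.8. The log2 differences of these 6 genes were between 0.57 and 0.98.

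Below in all smaller embryos were also *ATP5I*, a subunit of mitochondrial ATP synthase, with 57.0 to 68.7 CPM against 74.7 to 129.963, and *CPSF1*, a subunit of the mRNA cleavage and polyadenylation complex, with 24.1 to 28.3 against 30.5 to 51.7. *DDX20*, an RNA helicase of the SMN complex, had 129.3 to 162 CPM against 165 to 268. *RSL24D1*, which takes part in assembly of the large ribosomal subunit, had 56.6 to 57.0 CPM in the smaller embryos and 57.2 to 139 in the larger. *SND1*, a nuclease of RNA processing, had 32.9 to 47.8 against 48.5 to 81.2 CPM. For *RSL24D1* and *SND1* the nearest embryos of the groups differed by less than 1 CPM.

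**Figure D1:**
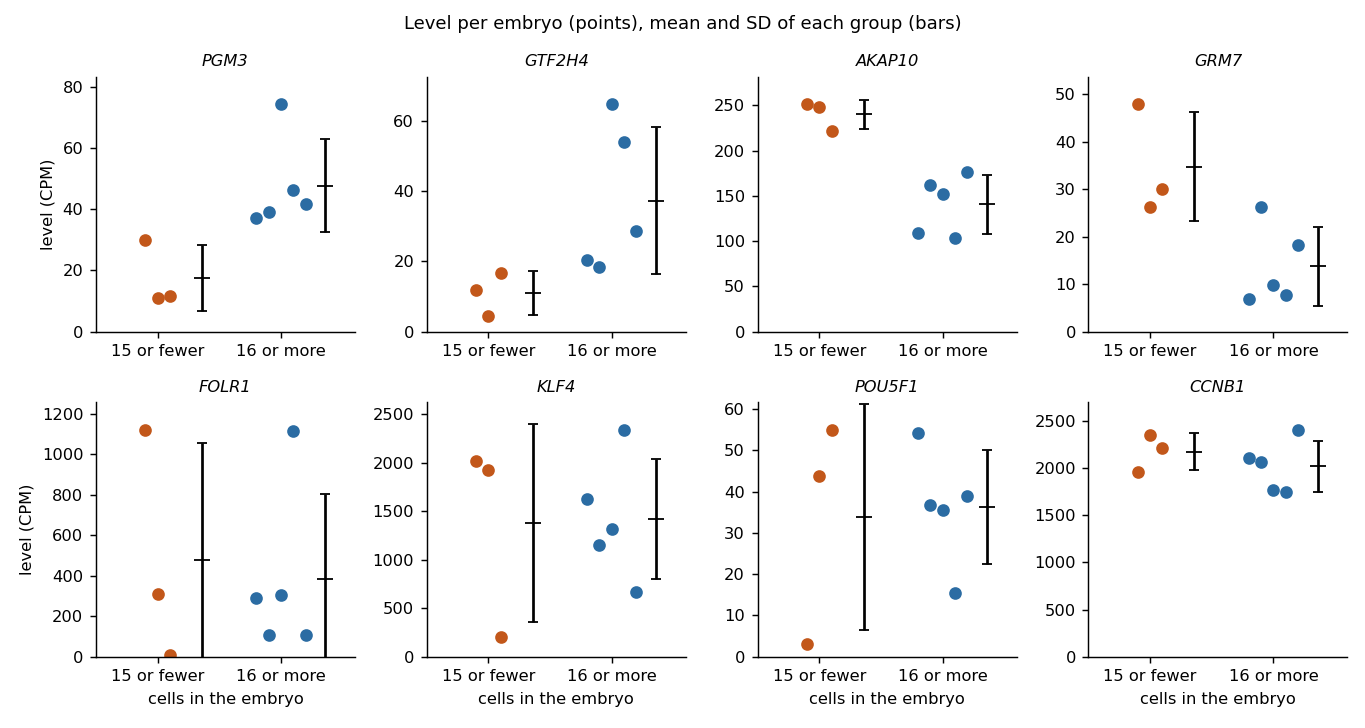
Level (CPM) of 8 genes in each Day 3 embryo, with embryos of 15 or fewer cells in orange and of 16 or more cells in blue; bars give the mean and SD of each group (n = 3 and n = 5) and end at 0 where the SD exceeds the mean. *PGM3* and *GTF2H4* lie below and *AKAP10* and *GRM7* above in all 3 smaller embryos, while the groups overlap for *FOLR1* (10.0 to 1121 CPM in the smaller embryos), *KLF4* (207 to 2017) and *POU5F1* (2.99 to 55.0), and *CCNB1* lies within 1743 to 2404 CPM in all 8.

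The smaller embryos were not alike among themselves. The distance between the summed profiles of 2 embryos, 1 minus Spearman's rho over the tested genes, averaged 0.319 between smaller embryos, 0.232 between larger embryos and 0.225 between embryos of different groups. The distance between groups was thus not larger than within them (difference -0.026, exact permutation test over the 56 splits, one-sided, p = 0.696, the smallest possible p being 0.0179). Each of the 3 smaller embryos had its nearest embryo in the other group, though that group offered 5 candidates and its own only 2. Day3-E4 was nearest to Day3-E8 at 0.0969, Day3-E1 to Day3-E3 at 0.104 and Day3-E6 to Day3-E7 at 0.107. Between Day3-E4 and Day3-E1 the distance was 0.500, exceeded only by the 0.576 between Day3-E1 and Day3-E8. Of the 5191 genes, 826 (15.9%) had both their highest and their lowest embryo among the 3 smaller ones and 1730 (33.3%) among the 5 larger ones. The 2 shares cannot be set against each other directly, because 5 embryos form more pairs than 3.

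**Figure D2:**
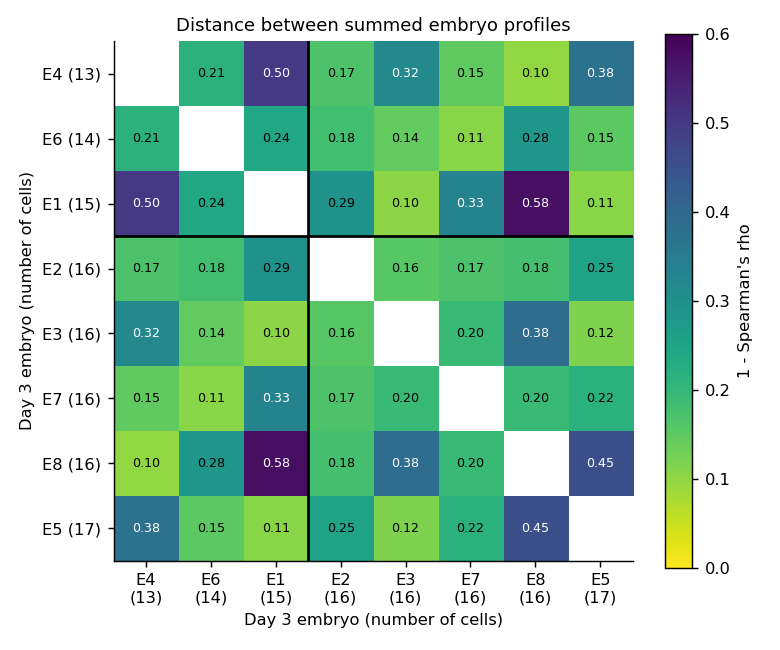
Distance (1 minus Spearman's rho over 5191 genes) between the summed profiles of the 8 Day 3 embryos, ordered by number of cells, which stands in brackets; black lines part the embryos of 15 or fewer cells from those of 16 or more. The closest pair, Day3-E4 and Day3-E8 at 0.0969, crosses the groups, and the most distant pair of smaller embryos, Day3-E4 and Day3-E1, lies at 0.500.

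Genes of embryonic genome activation showed this spread best. The list holds 20 genes that earlier work found transcribed from the 8-cell stage on and that the study detected in these cells, so it is not independent of the samples. In order of cell number, their summed level was 2074 CPM in Day3-E4, 872 in Day3-E6 and 130 in Day3-E1. Among the embryos of 16 cells it was 1021 in Day3-E2, 429 in Day3-E3, 1002 in Day3-E7 and 2132 in Day3-E8, and in Day3-E5 with 17 cells it was 296. The embryo with the fewest cells thus had the second highest level and the embryo with the most cells the second lowest, while the extremes stood at 16 and 15 cells. The means were 1025 ± 981 (SD, n = 3) and 976 ± 724 (SD, n = 5). The study's time-lapse record has the third cleavage completed earliest in Day3-E8 and Day3-E4 and latest in Day3-E1, and its relation to these levels was not tested.

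Of the 20 activation genes 9 had enough counts to be tested, 0 were called, and 6 were lower and 3 higher in the smaller embryos. Their median log2 difference was -0.65, against -0.0012 over all tested genes, although the mean of the summed level was higher in the smaller embryos. With plate as a term the median was 0.27, without Day3-E1 0.12 and without Day3-E8 0.78, whereas without Day3-E4 it was -1.33 and without Day3-E5 -1.0. The list was led by *FOLR1*, a folate receptor, which gave 42.2% of its mean level. *DDX3Y*, the Y-linked copy of an RNA helicase whose reads may be shared with its X-linked copy, gave another 21.8%. It had 61.6 to 363 CPM over the embryos, whose sex is not given, so that sex may enter the summed levels, which was not tested. *FOLR1* had 1121 CPM in Day3-E4, 309 in Day3-E6 and 10.0 in Day3-E1, against 107 to 1112 in the larger embryos, and so held both the highest and the lowest value in the smaller group. The repressor gene *OVOL2* had 32.9, 6.58 and 1.67 CPM in Day3-E4, Day3-E6 and Day3-E1 and 2.599 to 66.9 in the larger embryos. *PCDH10*, a protocadherin, had 9 UMI in Day3-E4, 1 in Day3-E6 and 0 in Day3-E1, where a count of 0 allows up to 5.00 CPM, and 1 to 19 in the larger embryos. *RHEBL1*, a small GTPase of the mTOR pathway outside the list, had 577, 820 and 63.3 CPM, against 163 to 698 in the larger embryos.

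Pluripotency genes followed the same order among the smaller embryos. Of 22 listed genes 12 were in the table and 9 were tested, with 0 called, 4 higher and 5 lower in the smaller embryos and a median log2 difference of -0.04. The median was 0.37 with plate as a term, 0.21 without Day3-E8 and -0.57 without Day3-E4. The sum was 3476 CPM in Day3-E4, 3261 in Day3-E6 and 1148 in Day3-E1, against 1528 to 3823 in the larger embryos. *KLF4* and *SALL4*, both transcription factors, made up 52.7% and 32.2% of the mean level. *KLF4* had 2017, 1924 and 207 CPM in Day3-E4, Day3-E6 and Day3-E1 and 671 to 2340 in the larger embryos. *KLF5*, a related factor, had 374, 83.3 and 10.0 CPM against 15.596 to 288.

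*NANOG*, a core pluripotency factor, had 176 CPM in Day3-E4, 48.2 in Day3-E6 and 1.67 in Day3-E1, which rests on 59, 22 and 1 UMI. The larger embryos had 10.397 to 92.7 CPM, inside the range of the 3 smaller ones. *POU5F1*, the factor OCT4, ran the other way, with 1 UMI (2.99 CPM) in Day3-E4, 20 UMI (43.8 CPM) in Day3-E6 and 33 UMI (55.0 CPM) in Day3-E1. It had 15.45 CPM in Day3-E8 and 35.6 to 54.3 in the other larger embryos, so that the embryos with the most *NANOG* had the least *POU5F1*. *SOX2*, the partner of OCT4, was likewise lowest in Day3-E8 with 12.9 CPM and in Day3-E4 with 32.9, and had 45.3 to 117.0 in the others. *MYC*, a growth regulator, was highest in Day3-E6 with 103 CPM, followed by Day3-E4 with 47.8, and lowest in Day3-E1 with 6.67, against 18.2 to 41.2 in the larger embryos. *DPPA4* had 32.9, 6.58 and 3.33 CPM in the smaller embryos and 0 to 108.5 in the larger.

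Lineage genes were low apart from a few. Of 22 listed genes of trophectoderm, the first outer lineage, and primitive endoderm, 14 were in the table and 6 were tested, with 0 called and a median log2 difference of -0.01. The sum was 1040, 1383 and 581 CPM in Day3-E4, Day3-E6 and Day3-E1, against 686 to 1351 in the larger embryos. *TFAP2C*, a trophectoderm factor, gave 62.1% of the mean level, with 768, 927 and 43.3 CPM against 263 to 994. *GATA2* was highest in Day3-E1 with 360 CPM and had 59.8 in Day3-E4 and 178 in Day3-E6, against 36.04 to 195 in the larger embryos. *PDGFRA*, a receptor of primitive endoderm, had 128.5, 103 and 16.66 CPM against 39.0 to 126. *GATA3* had 8.97, 41.6 and 45.0 CPM against 18.02 to 57.6. *CDX2* was too sparse to test, with 0 to 6 UMI per embryo. The 0 UMI of Day3-E4 allow up to 8.97 CPM and those of Day3-E5 up to 7.8.

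Genes of the cell cycle were compared next, and none differed past the threshold. Of 53 listed genes of the G1/S transition and DNA replication 48 were in the table and 41 were tested. None was called, 19 were higher and 22 lower in the smaller embryos, and the median log2 difference was -0.02. The sum was 5607 CPM in Day3-E4, 6717 in Day3-E6 and 8058 in Day3-E1, against 5514 to 7639 in the larger embryos, and the highest of the 8 values was 1.46 times the lowest. *POLE2*, a subunit of DNA polymerase epsilon, had 23.9, 41.6 and 46.7 CPM against 38.8 to 85.8, with a log2 difference of -0.71 (standard error 0.42). *RPA2*, a subunit of the protein that coats single-stranded DNA, had 35.9, 50.4 and 60.0 CPM against 41.6 to 118.7. *ORC5*, of the origin recognition complex, had 71.7, 296 and 239.9 CPM against 41.2 to 216.

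*PCNA*, the clamp of the replication fork, had 547, 622 and 162 CPM in Day3-E4, Day3-E6 and Day3-E1 and 205 to 1196 in the larger embryos. *CCNE1*, the cyclin of S phase entry, had 98.6, 169 and 24.99 CPM against 49.4 to 242. Both were thus lowest in Day3-E1, whose sum over the list was the highest of all embryos.

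Of 56 listed genes of mitosis and cytokinesis 46 were in the table and 43 tested, with 0 called, 17 higher and 26 lower in the smaller embryos and a median log2 difference of -0.09, which was 0.06 without Day3-E6, 0.03 without Day3-E8 and -0.23 without Day3-E4. The sum was 45148, 49248 and 54360 CPM in Day3-E4, Day3-E6 and Day3-E1 and 41151 to 54450 in the larger embryos, a 1.32-fold range. *AURKA*, a kinase of the mitotic spindle, alone gave 34.9% of it with 8760 to 22866 CPM. *CCNB1*, the mitotic cyclin, had 1958, 2349 and 2211 CPM against 1743 to 2404. *CDK1*, its kinase, ranged more widely, with 406 CPM in Day3-E4, 118 in Day3-E6 and 100.0 in Day3-E1 against 107 to 770. *ECT2*, needed for the cleavage furrow, had 140.5, 96.4 and 152 CPM against 97.0 to 248, and the spindle factor *TPX2* had 472, 445 and 913 against 468 to 1019.

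Genes of cell cycle arrest, DNA damage and apoptosis were looked at because a blastomere may also lag by arrest. Of 38 listed genes 29 were in the table and 17 tested, with 0 called, 7 higher and 10 lower in the smaller embryos and a median log2 difference of -0.10. With plate as a term the median was 0.37 with 13 of 17 higher, among Day3-E4 to Day3-E8 alone it was 0.22, without Day3-E1 0.30 and without Day3-E8 0.26, whereas without Day3-E4 it was -0.42. The sum was 6820 CPM in Day3-E4, 4519 in Day3-E6 and 2518 in Day3-E1, against 2573 to 5391 in the larger embryos. Day3-E4, the embryo with the fewest cells, had the highest sum of the 8 and Day3-E1 the lowest, and the list was led by the stress genes *DDIT3*, *GADD45A* and *ATF4*. *CDKN2C*, an inhibitor of CDK4 and CDK6, had 380 CPM in Day3-E4, 112 in Day3-E6 and 3.33 in Day3-E1, against 13.56 to 142 in the larger embryos. The inhibitor gene *CDKN1B* had 50.8, 63.6 and 91.6 CPM against 9.70 to 81.4. *ATM*, a kinase of the DNA damage response, had 53.8, 35.1 and 28.3 against 23.4 to 123.6. *CDKN1A*, the p53 target p21, had 2 to 17 UMI per embryo and was not tested.

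Maternal transcripts ran against the activation genes. Of 34 listed genes of the oocyte and of maternal effect 16 were in the table and all 16 were tested, with 0 called, 10 higher and 6 lower in the smaller embryos and a median log2 difference of 0.04. This direction changed with the setting. With plate as a term the median was -0.21 with 13 of 16 lower, with the number of cells as a numeric term 14 of 16 were lower with fewer cells, without Day3-E1 the median was -0.22 and without Day3-E8 -0.11, whereas without Day3-E4 it was 0.26 with 14 higher. All 8 embryos held these transcripts, which mark early blastomeres. The sum was 8321 CPM in Day3-E4, 12644 in Day3-E6 and 15510 in Day3-E1. In the larger embryos it was 9603 in Day3-E2, 16124 in Day3-E3, 13837 in Day3-E7, 3854 in Day3-E8 and 15531 in Day3-E5. Day3-E8 and Day3-E4, which had the highest activation sums, had the lowest maternal sums. *DPPA3*, which protects maternal DNA methylation, led the list with 3040, 3892 and 3900 CPM against 1267 to 4169. *DAZL*, an RNA-binding protein of germ cells, had 68.7, 140.3 and 385 CPM against 54.1 to 233, and *NLRP9* had 62.8, 127 and 515 against 82.4 to 507. *UCHL1*, a ubiquitin hydrolase of oocytes, had 1 and 2 UMI in Day3-E4 and Day3-E6 but 32 in Day3-E1, against 0 to 34 in the larger embryos.

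Ribosomal protein genes were the most numerous group. Of 73 genes 71 were tested and 0 were called, but 62 were lower and 9 higher in the smaller embryos, with a median log2 difference of -0.23. This lean depended on the setting and on single embryos. With the number of cells as a numeric term 56 of the 71 were higher with fewer cells. With plate as a term 65 of the 71 were higher and the median was 0.34, without Day3-E8 52 were higher with a median of 0.13, and without Day3-E1 45 of 72 were higher with a median of 0.08. Without Day3-E4 all 71 were lower with a median of -0.99. The sum was 54664 CPM in Day3-E4, 30760 in Day3-E6 and 19899 in Day3-E1, against 22971 to 65493 in the larger embryos. *RPL8* had 445, 178 and 93.3 CPM against 128.3 to 994, *RPL29* had 275, 210.4 and 175 against 204 to 515, and *RPS26* had 26.9, 146.8 and 23.3 against 52.4 to 189.9.

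Genes of adhesion, junctions and polarity, which prepare compaction, gave 44 of 53 in the table and 26 tested, with 0 called, 13 higher and 13 lower in the smaller embryos and a median log2 difference of 0.04. *CDH1*, or E-cadherin, had 14.94, 41.6 and 56.6 CPM in Day3-E4, Day3-E6 and Day3-E1 against 18.2 to 39.3 in the larger embryos. *CTNNB1*, its partner beta-catenin, had 83.7 to 93.3 CPM in all 3 smaller embryos and 54.1 to 158 in the larger. The myosin light chain *MYL6* had 56.8, 24.1 and 65.0 CPM against 55.0 to 94.9, the kinase gene *ROCK2* 65.8, 70.1 and 31.7 against 10.397 to 47.5, and cofilin, *CFL1*, 95.6, 70.1 and 48.3 against 44.5 to 183. Neither group stood apart for any of these 5 genes.

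Of 29 genes of the heat shock and unfolded protein responses 24 were in the table and 22 tested, with 0 called, 7 higher and 15 lower in the smaller embryos and a median log2 difference of -0.22. The median was -0.11 with plate as a term, -0.07 without Day3-E4 and -0.34 without Day3-E6. Without Day3-E8 it was -0.04, with 10 higher and 12 lower. The sum was 6178, 8407 and 7659 CPM against 7151 to 10084. *HSF1*, the heat shock factor, had 74.7, 94.2 and 65.0 CPM against 10.17 to 80.8, the chaperone gene *HSPA2* had 44.8, 52.6 and 110.0 against 28.6 to 141.6, and *HSPA5* of the endoplasmic reticulum had 114, 63.6 and 81.6 against 61.4 to 249.7. Day3-E4 had the lowest sum of the 8 embryos.

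Markers of other cells that could cling to an embryo were uneven, and whether such cells were present was not tested. Of 24 markers of cumulus and granulosa cells 19 were in the table, with a summed level of 463 to 748 CPM in the smaller and 288 to 762 in the larger embryos. Most of it came from *HAS2*, *SERPINE2* and *STAR*, which had 92.7 to 299.9, 87.5 to 240.9 and 30.9 to 242 CPM over the 8 embryos, while *INHBA* had 5.98 to 46.3 and the defining gene *FOXL2* had 0 to 2.62. Of 16 sperm markers 8 were in the table, and their sum of 42 to 101 CPM in the smaller and 46 to 88 in the larger embryos was 90.6% *ODF2*.

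**Figure D3:**
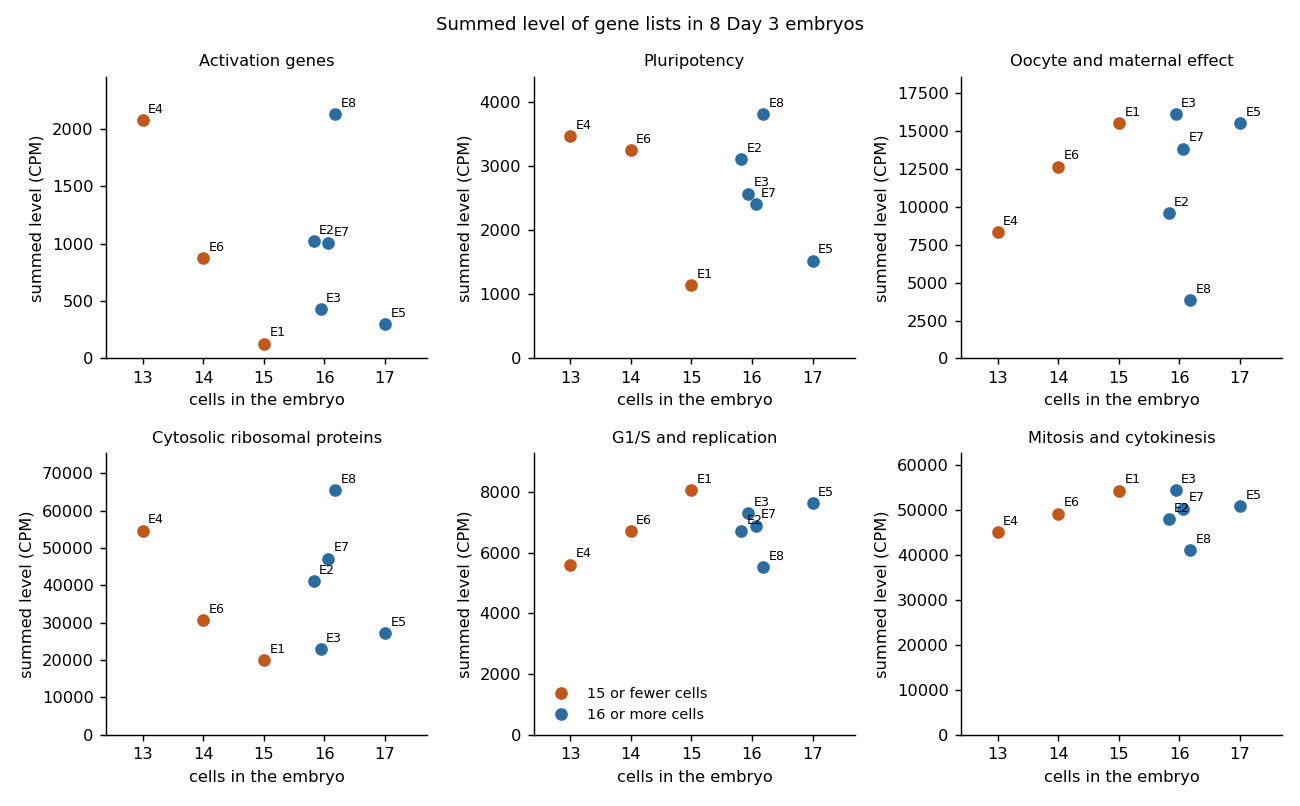
Summed level (CPM) of 6 gene lists in the 8 Day 3 embryos against the number of cells in the embryo; each point is 1 embryo, in orange for 15 or fewer and in blue for 16 or more cells, and the 4 embryos of 16 cells are set apart sideways. The 4 embryos of 16 cells spread from 429 to 2132 CPM for the activation genes against 130 to 2132 over all 8, and from 3854 to 16124 for the oocyte genes, the full range of all 8, while the lists of the cell cycle lie in a narrow band.

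Depth per cell was higher on average in the smaller embryos, with overlapping groups. The median UMI per cell was 22462 in Day3-E4, 26247 in Day3-E6 and 44622 in Day3-E1. In the larger embryos it was 20218 in Day3-E2, 23491 in Day3-E3, 21051 in Day3-E7, 27301 in Day3-E8 and 21664 in Day3-E5. The means were 31110 ± 11853 (SD, n = 3) and 22745 ± 2817 (SD, n = 5), with p = 0.107 by a two-sided permutation test, exact like all those of depth and spread, and 0.321 after adjustment over the 12 measures. With 56 splits the smallest p is 0.0179, so that a single measure could not come below 0.214 after adjustment, and 5 measures at the smallest p were needed to pass 0.05. The adjusted values therefore say little about whether the groups differ. Day3-E1 alone stood above the larger embryos, and without it the difference fell from 8365 to 1609 UMI. Within plate 1 the means were 33542 and 21855 (n = 2 and n = 2), and within plate 3 the values were 26247 and 21664 (n = 1 and n = 1).

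The UMI summed over an embryo averaged 463680 ± 132950 (SD, n = 3) against 351870 ± 45756 (SD, n = 5), with p = 0.0893 by exact permutation and 0.321 after adjustment, and with the mean not lower in the embryos of fewer cells. A cell had a UMI of 4719 genes in the smaller and of 4311 in the larger embryos (means of embryo medians, p = 0.25 by exact permutation, 0.5 after adjustment). With 10000 UMI drawn from each cell, which left 38 cells of the smaller and 65 of the larger embryos and removed 3 and 12, these numbers were 3133 and 3158 (exact permutation p = 0.857). Spike-in UMI per cell were 757.5 and 488.6 (p = 0.107 by exact permutation, 0.321 after adjustment), and gene UMI per spike-in UMI were 47.6 and 54.0 (exact permutation p = 0.661). Molecules counted per molecule of spike-in, the measure nearest to RNA content, were thus not higher in the smaller embryos. Day3-E4 to Day3-E8 alone were also compared, a set chosen after the data were seen. Day3-E3 was left out of it because of this same ratio. In that set the ratio averaged 33.8 in Day3-E4 and Day3-E6 and 37.6 in Day3-E5, Day3-E7 and Day3-E8 (exact permutation p = 0.3, where the smallest possible is 0.1). Because the ratio helped to choose the set, this p-value decides nothing about it.

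**Figure D4:**
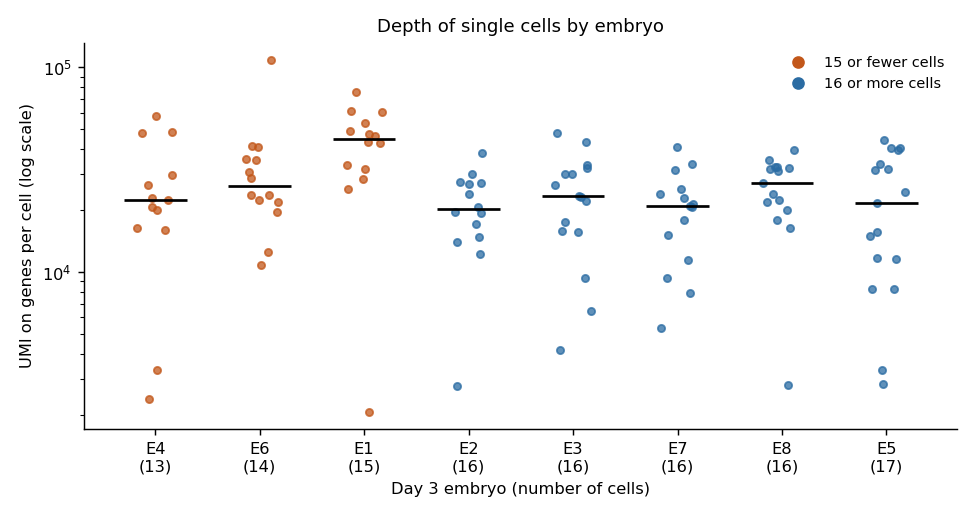
UMI on genes in each kept cell (log scale) of the 8 Day 3 embryos, ordered by number of cells, which stands in brackets; black lines mark the median of the embryo. The medians lie between 20218 and 27301 in 7 embryos and at 44622 in Day3-E1, and the highest cell, with 108376 UMI, belongs to Day3-E6.

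Spread between sibling cells was then compared, since an embryo of 13 to 15 cells may hold 1 to 3 blastomeres that are 1 division behind. The coefficient of variation of UMI over cells was 64.9% in Day3-E4, 72.9% in Day3-E6 and 42.3% in Day3-E1, and 36.1% to 62.6% in the larger embryos (means 60.0% and 48.1%, p = 0.214 by exact permutation, 0.5 after adjustment). The highest cell held 2.57 times the median of its embryo in Day3-E4, 4.13 times in Day3-E6 and 1.696 times in Day3-E1, and 1.44 to 2.05 times in the larger embryos. The means were 2.8 ± 1.23 (SD, n = 3) against 1.87 ± 0.25 (SD, n = 5), with p = 0.0893 by exact permutation and 0.321 after adjustment. Day3-E4 and Day3-E6 lay above all larger embryos and Day3-E1 within them, and the difference of 0.93 was 0.26 without Day3-E6 and 1.48 without Day3-E1 (p = 0.0476 by exact permutation, the smallest possible with 21 splits, and 0.381 after adjustment). Among Day3-E4 to Day3-E8 alone it was 1.54 (exact permutation p = 0.1, again the smallest possible). The coefficient of variation then differed by 19.9 percentage points (exact permutation p = 0.2), against 11.9 over all 8 embryos, and by 5.53 without Day3-E6.

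Cells above 2 medians of their embryo numbered 3 in Day3-E4, 1 in Day3-E6 and 0 in Day3-E1, where 3, 2 and 1 cells were missing to 16. Among the larger embryos Day3-E3 and Day3-E5 had 1 such cell each and the others 0. The order depended on the cutoff. Above 1.5 medians there were 5 cells in Day3-E5, the embryo with the most cells, and 3 each in Day3-E4 and Day3-E6. Day3-E3 and Day3-E7 then had 2 each, Day3-E1 and Day3-E2 1 each and Day3-E8 0. The cells above 2 medians held 57821, 48547 and 47552 UMI in Day3-E4, and the cell of Day3-E6 held 108376, or 23.8% of the UMI of the embryo. The same cells were also rich in spike-in, with 1923, 1147 and 1355 spike-in UMI against a median of 712 in Day3-E4 and 3087 against 930.5 in Day3-E6. Gene UMI per spike-in UMI were 0.857, 1.21 and 1.00 times the median of the embryo in the 3 cells of Day3-E4 and 1.08 times in the cell of Day3-E6, so that these cells did not stand apart by this measure. Over the cells of an embryo, gene UMI and spike-in UMI had a Spearman rho of 0.57 to 0.97, a description over cells that share an embryo.

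The gene content of these cells lay mostly inside the range of their siblings. For each of the 12 gene lists, the summed CPM of the cell was set against the range of the other cells of its embryo. The range of so many siblings takes in most cells for most lists, so these counts do not show that the high cells resemble their siblings. In Day3-E4, cell 12 lay inside that range for all 12 lists and cells 10 and 4 for 11 each, with ribosomal protein genes above it in cell 10 (70674 CPM against 35170 to 64729) and lineage genes below it in cell 4 (672.9 against 773 to 2908). The high cell of Day3-E6 lay inside for 11 and had fewer ribosomal protein transcripts than any sibling (24304 CPM against 26909 to 46973). For mitosis genes it had 48812 CPM, next to a median of 48498 in its siblings.

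**Figure D5:**
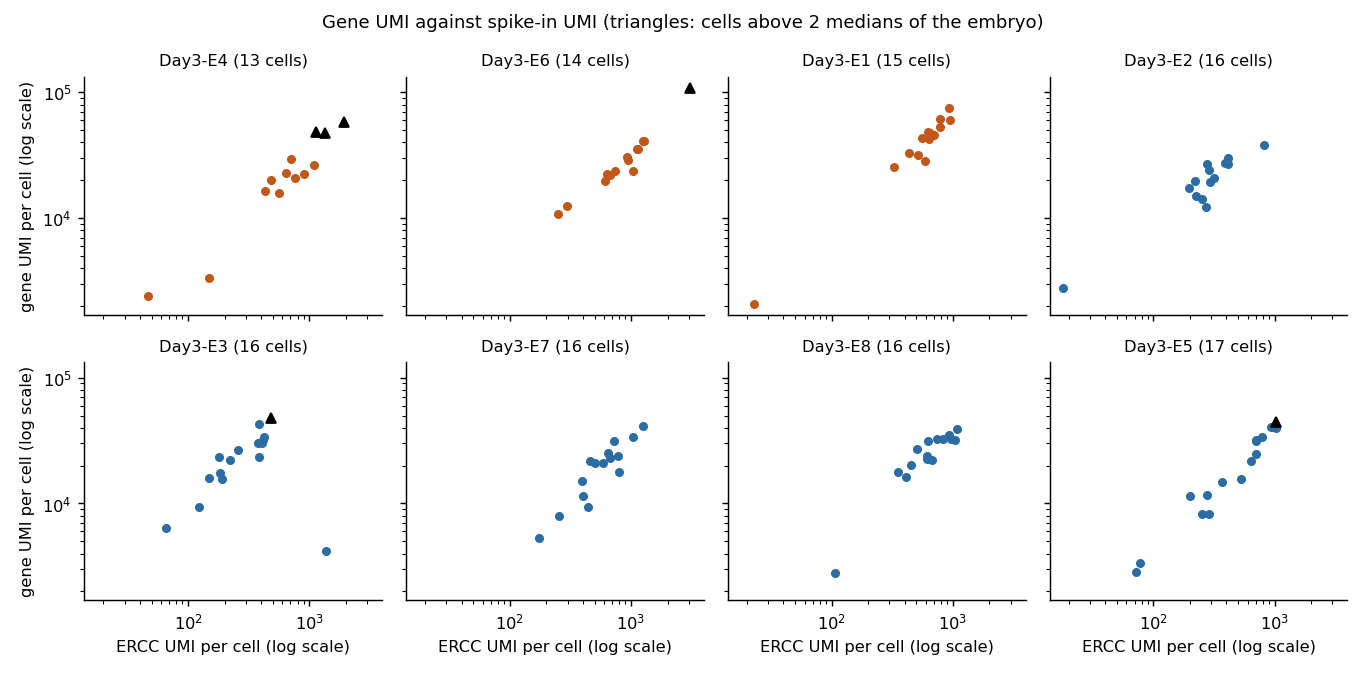
Gene UMI against ERCC spike-in UMI of each kept cell (both log scales), 1 panel per Day 3 embryo in order of cell number; black triangles are cells above 2 medians of their embryo, 3 in Day3-E4 and 1 each in Day3-E6, Day3-E3 and Day3-E5. The triangles continue the line of their siblings, and the single cell far below the line in Day3-E3 has 4177 gene UMI and 1366 spike-in UMI.

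The other measures of the spread had unadjusted p-values from 0.339 to 0.75. The SD of log2 UMI over cells was 1.14 in the smaller and 0.97 in the larger embryos (means, exact permutation p = 0.339), and that of log2 gene UMI per spike-in UMI 0.27 and 0.51 (exact permutation p = 0.5). The latter mean was raised by Day3-E3 at 1.25, and without this embryo it was 0.33. In cells thinned to 10000 UMI, the mean distance between siblings, 1 minus Spearman's rho, was 0.461 in Day3-E4, 0.515 in Day3-E6 and 0.4003 in Day3-E1, against 0.402 to 0.536 in the larger embryos (means 0.459 and 0.479, exact permutation p = 0.643). The median ratio of variance to mean over genes, which is 1 for pure counting noise, was 1.19 and 1.21 (means, exact permutation p = 0.75).

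For single genes, the ratio of variance to mean over siblings was compared on a log2 scale for 2337 genes with a mean of 1 or more UMI per thinned cell. By limma's moderated test with Benjamini-Hochberg adjustment, 0 genes (0%) differed, the lowest adjusted p was 0.981, and 109 genes (4.66%) had an unadjusted p under 0.05, 37 with larger and 72 with smaller spread in the smaller embryos. With another seed of the thinning the split was 56 and 55. The 5 genes of smallest p with less spread in the smaller embryos were *GOLGA7B*, *GYG1*, *TRAK2*, *CCT8* and *EIF4E2*, and those with more spread were *UBE2V1*, *XRN2*, *CYCT*, *VPS29* and *RTCB*. *CCT8*, a subunit of the chaperonin that folds actin and tubulin, had ratios of 0.547, 0.415 and 0.694 in Day3-E4, Day3-E6 and Day3-E1 against 0.954 to 2.73 in the larger embryos. *CYCT*, the cytochrome c of germ cells, had 3.19, 1.98 and 2.00 against 0.581 to 1.26. For *CCT8* and *CYCT* the groups did not overlap, nor did they for *XRN2*, *RTCB*, *GOLGA7B*, *GYG1*, *TRAK2* and *EIF4E2*. All were picked by smallest p in this same comparison, which favours such separation. The share of the 2337 genes that separate was not counted. None of these genes passed limma's test (adjusted p = 0.981 for each).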

How the data were processed

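The authors mapped SCRB-Seq reads to Bos tau7 and ERCC sequences with STAR 2.5.2b and deposited a table of UMI counts for 10772 genes and 92 spike-ins. The deposited normalised table was not used. Every column matched a sample. Cells with 2000 or more UMI on genes were summed per embryo, and levels are CPM of that sum. Depth per cell and per embryo is given with the results and covers counting error only where limits for 0 counts (3 UMI per embryo) are printed.

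Groups, 3 against 5 embryos, followed the number of columns per embryo. Members and gene lists were chosen with earlier results of these data known. Levels were tested with edgeR 4.0.16 (filterByExpr, TMM, quasi-likelihood) and, as an alternative, DESeq2 1.42.0. Measures of depth and spread had exact permutation tests over 56 splits, coded with numpy 2.4.6 and adjusted over 12 measures. Ranks for Spearman's rho came from scipy 1.17.1. The spread of single genes was tested with limma 3.58.1 on log2(ratio + 0.25). Lists have no test, and their counts and medians are to be read against those over all tested genes. The scripts were checked on simulated counts. Named genes were the called genes with the largest changes, or, as none was called, up to 10 per direction of smallest p whose groups did not overlap, 3 of smallest p per list, and a set of developmental genes, of which TEAD4 has no entry. Embryos come from separate zygotes, but parents are not given.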

Additional observations from a re-analysis of the deposited data

Results flagged for a closer look

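Among the 89 values given by embryo, 4 had 1 of the 5 embryos of 16 or more cells set apart from the other 4 by Dixon's test, where chance flags about 1 in 20. Day3-E3 had an SD of log2 gene UMI per spike-in UMI of 1.25, against 0.2503 to 0.453 in the other 4. It has a cell with 4177 gene UMI and 1366 spike-in UMI. The highest cell of Day3-E8 held 1.44 times the median of its embryo, against 1.89 to 2.05 in the other 4. *FOLR1* had 1112 CPM in Day3-E8, against 107 to 304. *PGM3* had 74.4 CPM in Day3-E7, against 37.3 to 46.3, and without Day3-E7 it remained lower in the 3 smaller embryos. The group of 3 embryos was too small for this check.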

How the results depend on the processing

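No paired analysis was possible because the groups share no embryo number, and a number only names an embryo. The count of 0 genes with a different level held under all 21 alternatives, and the distance between groups kept its sign under 9. The spread of single genes gave 1 call, LOC100847759, at 5000 UMI per cell, where fewer genes were tested. Leaving out the highest cell of each embryo was chosen after seeing the data, and so was keeping Day3-E4 to Day3-E8 alone for depth and spread, though not for gene levels.

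These differences (smaller minus larger embryos) changed sign, and the cause was not tested. Genes per thinned cell came to 1.0 at 5000 UMI, the SD of log2 UMI to -0.11345 with all cells, the ratio of variance to mean to 0.0254 without plate 2, and the SD of log2 gene UMI per spike-in UMI to 0.00757 and the distance of sibling cells to 0.0123 among Day3-E4 to Day3-E8 alone. With plate as a term, log2 differences were 0.20 for *PDGFRA*, 0.48 for *TFAP2C*, 0.08 for *INHBA*, -0.20 for *ODF2*, 0.18 for *RPL8*, 0.06 for *RPL29*, -0.04 for *SOX2*, 0.45 for *KLF4*, -0.28 for *GATA3*, 0.06 for *CTNNB1*, 0.36 for *CCNE1* and 0.47 for *PCNA*. Without the highest cells *POU5F1* had 0.08.

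Leaving out 1 embryo at a time moved gene UMI per spike-in UMI from -20.2 to 2.3002, genes per thinned cell from -100.45 to 29.55, the distance of sibling cells from -0.0481 to 0.00949 and the ratio of variance to mean from -0.0901 to 0.0589. Log2 ranges that crossed 0 were -0.83 to 0.44 for *CCNE1*, -0.09 to 0.54 for *CDH1*, -0.46 to 1.85 for *CDKN2C*, -0.19 to 0.12 for *CTNNB1*, -0.34 to 0.83 for *DAZL*, -1.53 to 1.46 for *FOLR1*, -0.11 to 0.94 for *GATA2*, -0.23 to 0.38 for *GATA3*, -0.57 to 0.47 for *KLF4*, -1.50 to 1.43 for *KLF5*, -1.0 to 1.51 for *NANOG*, -1.54 to 0.05 for *NLRP9*, -0.23 to 0.29 for *ODF2*, -0.80 to 0.32 for *PDGFRA*, -0.55 to 0.37 for *POU5F1*, -0.10 to 0.90 for *RHEBL1*, -0.03 to 0.64 for *SOX2* and -0.59 to 0.35 for *TFAP2C*. Day3-E1 was the only smaller embryo with a high ratio of gene to spike-in UMI (75.2). The split in this ratio and the number of cells can thus be separated only in part, and the labels name no library for an embryo.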
